A study of Mus musculus with 12 samples.

Results

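Histone and DNA modifying enzymes add or remove the chemical marks on chromatin, and 71 of their genes were followed here in splenic T cells. They were taken by symbol from the platform annotation, using probe sets that name 1 gene: histone deacetylases (Hdac), sirtuins (Sirt), lysine acetyltransferases (Kat), lysine methyltransferases (Kmt, Setd, Ezh), lysine demethylases (Kdm), DNA methyltransferases (Dnmt1 and Dnmt3) and the Tet dioxygenases. They are 71 of the 18193 genes with a probe set of their own. The choice by symbol misses enzymes of other names, among them Ep300, Crebbp, Dot1l and Ehmt2, and takes in proteins such as Dnmt3l and Kmt2e that are not known to modify chromatin themselves.

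The samples were CD4+CD25+ regulatory T cells (Treg) and CD4+CD25- conventional T cells (Tconv) from the spleens of NOD mice and of B6.H2g7 mice, written B6g7 here. NOD mice develop autoimmune diabetes. B6g7 mice are B6 mice that carry the H2g7 MHC haplotype of NOD, so all 4 groups share that haplotype while the rest of the genome differs by strain. The groups were NOD Treg, NOD Tconv, B6g7 Treg and B6g7 Tconv, with 3 arrays each; every array held RNA pooled from 3 mice that were 6 weeks old. Cells were enriched on magnetic columns by CD25 and then passed through a sorter 2 times to remove CD8a, CD11b, CD69 and B220 positive cells. The RNA was amplified in 2 rounds before hybridisation to Affymetrix arrays. The labels give 89 to 96% Foxp3+ cells in the Treg sorts and no such figure for Tconv.

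Acetylation of histone tails by Kat enzymes opens chromatin, and Hdac and Sirt enzymes take it off again. Methyl groups on histone lysines mark active or silent genes depending on the residue, and are written by Kmt, Setd and Ezh proteins and erased by Kdm proteins. Dnmt enzymes methylate cytosine in CG dinucleotides, and Tet enzymes oxidise that methyl group as a step towards its removal. In Treg cells, demethylation of CG sites in the Foxp3 locus is known to go with stable Foxp3 expression, and several deacetylases are known to act on the Foxp3 protein.

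Each gene was represented by its brightest probe set, and levels are log2 of the deposited intensity. Changes are differences of log2 group means ± SE of a limma fit over all 12 arrays. A gene was called where its p, adjusted over all 45037 tested probe sets by the Benjamini-Hochberg method, was under 0.05. Mean levels of the 71 genes lay between 4.93 and 12.83, and 69 were above the dim level of 5.28 (the 25th percentile of all probe sets) in every group. Kdm4d and Sirt4 were dim in all 4 groups. In bulk RNA, fewer cells of a type and less RNA per cell cannot be told apart, and this touches every result.

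The arrays followed their labels: Foxp3 was higher by 5.23 ± 0.14 (adjusted p = 3.15e-10) and Il2ra by 5.20 ± 0.07 (adjusted p = 6.05e-13) in Treg than in Tconv, and Cd4 changed by -0.40 ± 0.10 (adjusted p = 0.0262). Of the 6 B cell markers measured of 7 listed, 1 was called between Treg and Tconv, Cd79b, at 0.79 ± 0.07 (adjusted p = 1.56e-05). The summed intensity of the B cell list ran from 796.4 to 870.5 in NOD Treg, 758.6 to 890.2 in NOD Tconv, 726 to 871 in B6g7 Treg and 699.9 to 852 in B6g7 Tconv. Of 3 measured NK cell markers of 4 listed, 1 was called between Treg and Tconv. It was Klrd1, at -3.98 ± 0.16 (adjusted p = 5.79e-09) in Treg relative to Tconv, while the median change over the 3 was 0.02. The summed NK list ran from 532 to 569.8 in NOD Treg, 865 to 1270.0 in NOD Tconv, 371 to 456 in B6g7 Treg and 1159.7 to 1346 in B6g7 Tconv; Nkg7 was higher in NOD than in B6g7 by 0.49 ± 0.11 (adjusted p = 0.0141). No listed marker of erythroid, CD8, dendritic, monocytic or neutrophil cells was called in those averaged comparisons. No listed marker had an intensity of 0, and the part of any of them in the results was not tested. The 3' minus 5' log2 difference of the actin control, which grows as RNA is shortened, averaged 4.15 ± 0.76 in NOD Treg, 3.67 ± 0.65 in NOD Tconv, 3.83 ± 1.03 in B6g7 Treg and 3.98 ± 0.40 in B6g7 Tconv (SD, n = 3 each). Replicate 1 had the lowest value in NOD Treg (3.29), NOD Tconv (2.97) and B6g7 Treg (2.66). In B6g7 Tconv replicate 2 was lowest (3.67), below replicate 1 (3.84).

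The first question was which of these enzymes differ in RNA level between Treg and Tconv when both strains are averaged. Of the 71 genes, limma called 9, or 12.7%, against 7.5% of all 18193 genes. Treg had 6 of them higher, against 4.46% of all genes, and 3 lower, against 3.03%. The called genes come from 6 of the 8 enzyme groups: Kdm2b, Hdac10, Hdac6, Kdm3b, Kmt2a and Dnmt3a were higher, and Setd4, Tet1 and Kat14 were lower. Changes were small, with 52 of the 71 genes within 0.25 of zero and 4 beyond 0.5 on the log2 scale. The median change was -0.01 over the 71 genes and -0.01 over all genes, and the median size without regard to sign was 0.11 over the 71 and 0.075 over all genes. The count was 5 when either B6g7 Tconv replicate 2 or NOD Treg replicate 3 was left out, 3 without all replicate 2 arrays and 5 without all replicate 3 arrays. It was 14 with the replicate number as a block, 15 with array weights and 14 when the actin difference entered as covariate. The share of all genes called in these runs is not given here, so these counts say nothing particular about the enzymes. The block added Hdac1, Tet2, Kat2b, Setdb2 and Setd6.

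**Figure D1:**
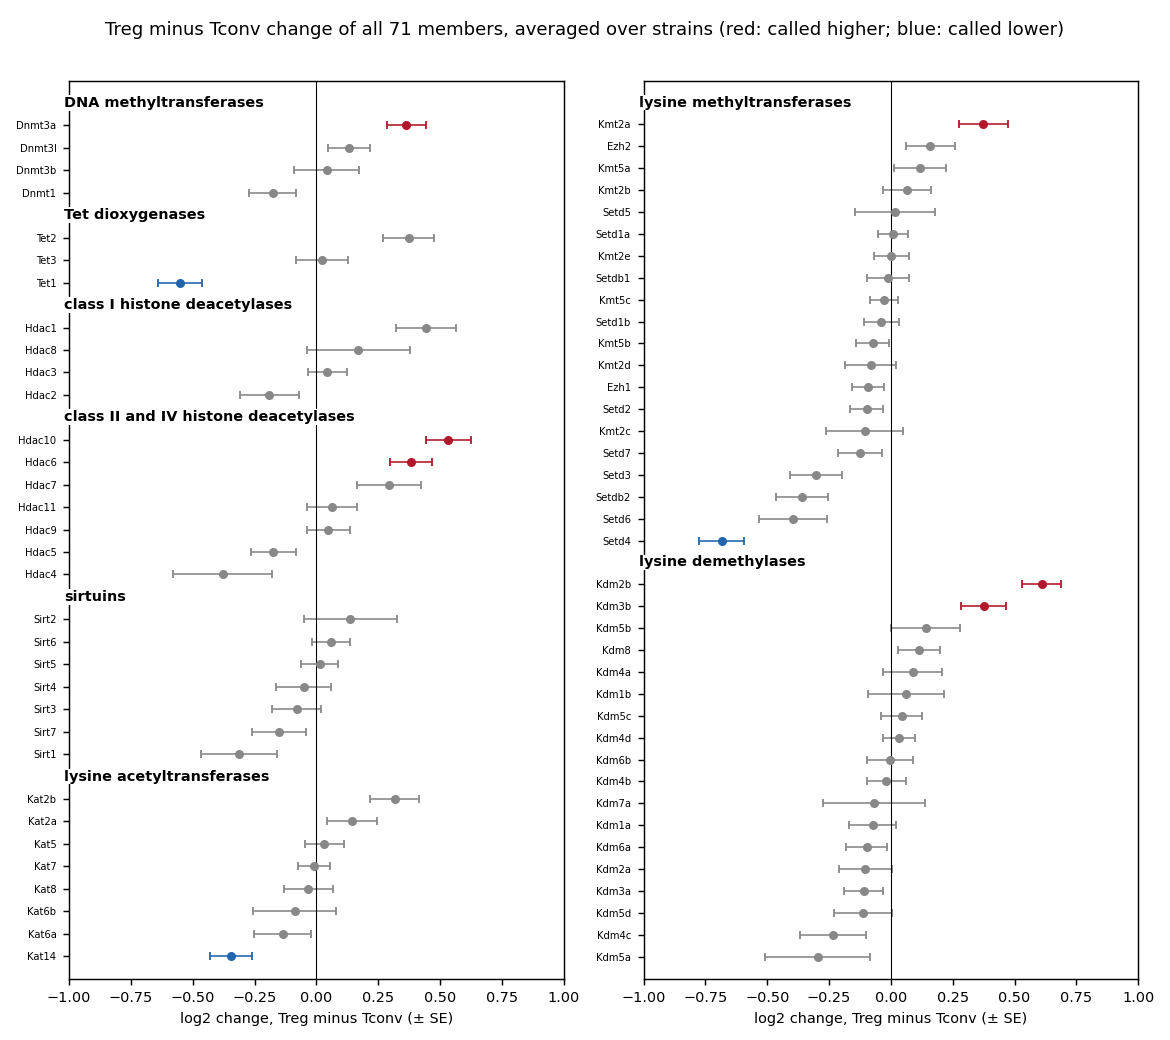
Log2 change, Treg minus Tconv averaged over strains, of all 71 genes by enzyme group (points) with the SE of the limma fit (bars); red marks genes called higher in Treg and blue genes called lower. Kdm2b at 0.61 and Setd4 at -0.68 lie at the ends, and no sirtuin or class I histone deacetylase was called.

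Among the lysine demethylases, Kdm2b was 1.53-fold higher in Treg. It encodes a histone H3 lysine 36 demethylase whose zinc finger binds unmethylated CG-rich DNA and brings Polycomb complexes there. Its log2 levels were 11.05, 11.18 and 11.26 in NOD Treg, against 10.30, 10.52 and 10.63 in NOD Tconv. In B6g7 mice they were 10.99, 11.28 and 11.19 in Treg, against 10.58, 10.68 and 10.59 in Tconv. Every Treg array was above every Tconv array. The averaged change was 0.61 ± 0.08 (adjusted p = 0.000228), and a second probe set gave 0.50 ± 0.10 (adjusted p = 0.00538). Kdm2b was also called within NOD, at 0.68 ± 0.11 (adjusted p = 0.00284), and within B6g7, at 0.54 ± 0.11 (adjusted p = 0.0144). The NOD call held without any single array and was lost without all replicate 2 arrays (0.131) or all replicate 3 arrays (0.061). The call in B6g7 was lost without B6g7 Tconv replicate 1 (adjusted p = 0.0611), B6g7 Treg replicate 2 (0.0707) or B6g7 Treg replicate 3 (0.0566). It was also lost with renewed quantile normalization (0.0763) and from the B6g7 arrays alone (0.0551).

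Kdm3b, a histone H3 lysine 9 demethylase, had levels of 10.32, 9.91 and 10.12 in NOD Treg, against 9.86, 9.69 and 9.75 in NOD Tconv. In B6g7 the levels were 10.26, 9.96 and 10.11 in Treg, against 9.91, 9.73 and 9.51 in Tconv. The Treg arrays were all above the Tconv arrays; the nearest values, 9.91 in NOD Treg replicate 2 and 9.91 in B6g7 Tconv replicate 1, round alike. Kdm3b rose by 0.37 ± 0.09 (adjusted p = 0.0303), and its other probe set gave 0.28 with an adjusted p of 0.0906. Its call held without B6g7 Tconv replicate 1, NOD Tconv replicate 1, B6g7 Treg replicate 2 or NOD Treg replicate 2, and was lost without any one of the other 8 arrays, at adjusted p between 0.061 and 0.0841. The other 16 demethylases were not called, at changes between -0.30 (Kdm5a) and 0.14 (Kdm5b). They include the histone H3 lysine 27 demethylases Kdm6a, at -0.10 ± 0.08 (adjusted p = 0.747), and Kdm6b, at -0.00 ± 0.09 (adjusted p = 0.996), and the lysine 9 demethylase Kdm4c, at -0.23 ± 0.13 (adjusted p = 0.516). Kdm5b has a dimmer second probe set that was called higher in Treg, at 0.32 ± 0.09 (adjusted p = 0.0441).

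Among the 20 lysine methyltransferases, 1 was higher in Treg (4.46% of all genes were) and 1 was lower (3.03%). Setd4, a SET domain protein, was 1.61-fold lower. Its levels were 8.24, 8.50 and 8.56 in NOD Treg, against 8.87, 8.87 and 9.21 in NOD Tconv. In B6g7 mice Treg had 7.35, 7.53 and 7.73, against 8.35, 8.31 and 8.40 in Tconv. Treg and Tconv arrays did not overlap within either strain, whereas NOD Treg overlapped with B6g7 Tconv. The averaged change was -0.68 ± 0.09 (adjusted p = 0.000324), and its other probe sets were both called lower too, at -0.54 and -0.49. Setd4 was called within B6g7, at -0.82 ± 0.13 (adjusted p = 0.00225), and within NOD, at -0.55 ± 0.13 (adjusted p = 0.0333). The B6g7 call held without any single array and was lost without all replicate 2 arrays (0.118). The NOD call held without B6g7 Tconv replicate 3, B6g7 Treg replicate 1 or B6g7 Treg replicate 3 and was lost without any one of the other 9 arrays, at adjusted p between 0.0515 and 0.153. It was also lost with renewed quantile normalization (0.0833) and from the NOD arrays alone (0.0716).

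Kmt2a, which encodes the histone H3 lysine 4 methyltransferase MLL1, had levels of 10.27, 10.31 and 10.57 in NOD Treg, against 10.13, 10.03 and 10.20 in NOD Tconv. In B6g7 they were 10.78, 10.54 and 10.84 in Treg, against 10.50, 10.24 and 9.95 in Tconv. Within each strain the Treg arrays were above the Tconv arrays. The averaged change of 0.37 ± 0.10 passed narrowly (adjusted p = 0.0443), and the other probe set gave 0.16 (adjusted p = 0.935). The Kmt2a call held without B6g7 Tconv replicate 1 or B6g7 Treg replicate 2 and was lost without any one of the other 10 arrays, at adjusted p between 0.0503 and 0.119. It was also lost with the mean of its probe sets (0.583). Setdb2, which methylates histone H3 lysine 9, had -0.36 ± 0.10 (adjusted p = 0.0685, and 0.0077 with the replicate block), the actin histidine methyltransferase Setd3 had -0.30 ± 0.10 (adjusted p = 0.147), and Setd6 had -0.39 ± 0.14 (adjusted p = 0.154, and 0.0496 with the block). The catalytic subunits of Polycomb repressive complex 2 did not pass either, Ezh2 at 0.16 ± 0.10 (adjusted p = 0.58) and Ezh1 at -0.09 ± 0.07 (adjusted p = 0.659), nor did Setdb1 at -0.01 ± 0.08 (adjusted p = 0.982).

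The DNA methylation enzymes held 1 call higher in Treg, Dnmt3a, and 1 lower, Tet1. Dnmt3a, a de novo DNA methyltransferase, had levels of 10.37, 10.14 and 10.27 in NOD Treg, against 9.69, 9.93 and 9.89 in NOD Tconv. In B6g7 the levels were 10.41, 10.27 and 10.08 in Treg, against 9.93, 10.04 and 9.86 in Tconv. The Treg arrays were all above the Tconv arrays. Dnmt3a rose 1.29-fold, by 0.36 ± 0.08 (adjusted p = 0.0123). All 4 of its other probe sets had positive changes, from 0.19 to 0.46, and the one at 0.46 was called (adjusted p = 0.0229). The call held when any single array was left out and was lost without all replicate 1 arrays (0.181), all replicate 2 arrays (0.101) or all replicate 3 arrays (0.0782). Dnmt1, which copies methylation after replication, had -0.18 ± 0.09 (adjusted p = 0.467), Dnmt3b had 0.04 ± 0.13 (adjusted p = 0.959) and the cofactor Dnmt3l had 0.13 ± 0.08 (adjusted p = 0.597).

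Tet1, a dioxygenase that oxidises methylated cytosine, was 1.47-fold lower in Treg. Its levels were 7.87, 7.56 and 7.85 in NOD Treg, against 8.46, 8.07 and 8.24 in NOD Tconv. In B6g7 mice Treg had 7.64, 7.46 and 7.71, against 8.35, 8.13 and 8.14 in Tconv. Every Treg array was below every Tconv array. The averaged change was -0.55 ± 0.09 (adjusted p = 0.00162). Tet1 was called in B6g7, at -0.60 ± 0.13 (adjusted p = 0.0166), a call lost without B6g7 Tconv replicate 1 (0.0836) or B6g7 Treg replicate 2 (0.079). In NOD its change of -0.50 ± 0.13 had an adjusted p of 0.0543. Its 4 probe sets disagreed: one gave -1.27 ± 0.23 (adjusted p = 0.00438), while the remaining pair gave -0.16 and 0.14 and were not called. The probe set at -1.27 was called within NOD, at -1.34 ± 0.33 (adjusted p = 0.0498), and not within B6g7, at -1.21. Tet2, of the same activity, had 0.37 ± 0.10 and was not called (adjusted p = 0.0518), but was called with the replicate block (0.0238), the filter on dim probe sets (0.0466), renewed quantile normalization (0.0239) and the actin covariate (0.0282); its second probe set gave 0.08 (adjusted p = 0.751). Tet3 had 0.02 ± 0.11 (adjusted p = 0.975).

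Setd4 and Tet1 were the genes called lower in Treg within B6g7, and Dnmt3b had the most negative difference between NOD and B6g7 of the 71 genes, so their promoters are shown with each CG, the dinucleotide that Dnmt and Tet enzymes act on, in capitals. Each runs from 250 bases before to 50 after the start of the gene, 5′ to 3′ on the strand of the gene, as given by RefSeq for GRCm38.p6: chr16:93603766-93604065 on the minus strand for Setd4, chr10:62887275-62887574 on the minus strand for Tet1 and chr2:153649199-153649498 on the plus strand for Dnmt3b.
Setd4: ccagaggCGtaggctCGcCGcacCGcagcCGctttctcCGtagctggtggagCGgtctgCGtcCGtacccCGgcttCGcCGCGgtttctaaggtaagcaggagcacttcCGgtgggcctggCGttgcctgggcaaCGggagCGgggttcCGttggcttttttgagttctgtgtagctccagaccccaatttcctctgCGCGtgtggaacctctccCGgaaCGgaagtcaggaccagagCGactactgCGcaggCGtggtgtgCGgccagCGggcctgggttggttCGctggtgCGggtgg
Tet1: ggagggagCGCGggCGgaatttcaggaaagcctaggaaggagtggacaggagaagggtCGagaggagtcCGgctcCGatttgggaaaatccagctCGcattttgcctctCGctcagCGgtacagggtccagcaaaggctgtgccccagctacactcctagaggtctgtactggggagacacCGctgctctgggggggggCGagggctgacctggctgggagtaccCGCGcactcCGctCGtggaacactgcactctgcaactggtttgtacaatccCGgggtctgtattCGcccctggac
Dnmt3b: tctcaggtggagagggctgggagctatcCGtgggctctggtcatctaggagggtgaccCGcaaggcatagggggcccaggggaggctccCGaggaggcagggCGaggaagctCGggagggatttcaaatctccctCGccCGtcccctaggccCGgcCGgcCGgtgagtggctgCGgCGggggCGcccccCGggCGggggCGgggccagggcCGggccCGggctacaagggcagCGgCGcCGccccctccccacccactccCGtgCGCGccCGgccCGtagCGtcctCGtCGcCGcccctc
They hold 29 CG in Setd4, 17 in Tet1 and 30 in Dnmt3b. Over all 32851 promoters of this length in the table the median was 7, and 12.9% had at least as many as Setd4, 31.4% as Tet1 and 11.7% as Dnmt3b. Of the 71 genes, 59 have an entry, with 85 promoters and a median of 21 CG. Neither TGTTTAC, a forkhead motif searched on both strands, nor TTCNNNGAA, a STAT motif that reads alike on both strands, is in these 3 windows. Among all promoters 3.65% hold the first and 8.30% the second; among the 85 promoters of the 71 genes, 2.35% and 8.24% do. The motifs were counted independently, and the N positions of the second can hold bases of the others. No match says only that these letters are not in this window.

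**Figure D2:**
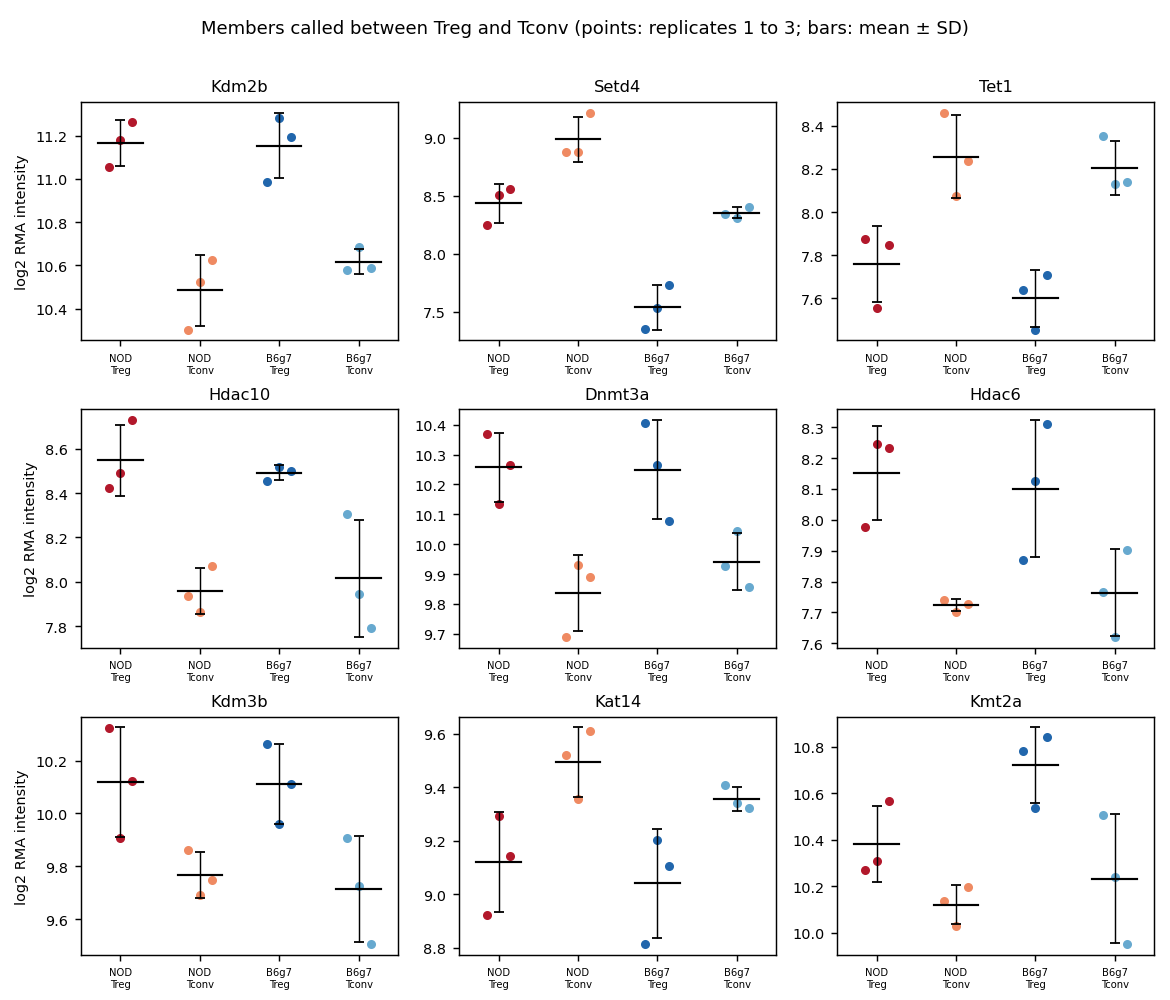
Log2 RMA intensity of the 9 genes called between Treg and Tconv, by group, with 1 point per array and the mean ± SD of 3 arrays. Kdm2b lies between 10.99 and 11.28 in the Treg arrays and between 10.30 and 10.68 in the Tconv arrays, and Setd4 differs by population and by strain.

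Of the histone deacetylases, 2 of 7 class II and IV genes were called, both higher in Treg (4.46% of all genes were). Of the 4 class I genes none was called by limma, and 1, Hdac1, had an unadjusted p under 0.05 and was called with the replicate block (adjusted p = 0.0339). Hdac10, which removes acetyl groups from polyamines, had levels of 8.42, 8.49 and 8.73 in NOD Treg, against 7.94, 7.87 and 8.07 in NOD Tconv. In B6g7 it had 8.45, 8.52 and 8.50 in Treg, against 8.31, 7.95 and 7.79 in Tconv. No Treg array overlapped with a Tconv array. Hdac10 rose 1.45-fold, by 0.53 ± 0.09 (adjusted p = 0.00246); its other probe set is dim and was not called (adjusted p = 0.842), and the call was lost without all replicate 2 arrays (0.149). It was called within NOD at 0.59 ± 0.13 (adjusted p = 0.0233). The NOD call was lost without NOD Tconv replicate 1 (0.0882), NOD Tconv replicate 2 (0.109), NOD Treg replicate 2 (0.0613) or NOD Treg replicate 3 (0.121). It was also lost with the mean of its probe sets (0.0512).

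Hdac6, a mainly cytoplasmic deacetylase of tubulin, had levels of 7.98, 8.25 and 8.23 in NOD Treg, against 7.74, 7.70 and 7.73 in NOD Tconv. In B6g7 the levels were 7.87, 8.12 and 8.31 in Treg, against 7.77, 7.62 and 7.90 in Tconv. The groups were separate in NOD, and in B6g7 Treg replicate 1 lay below Tconv replicate 3. Hdac6 rose by 0.38 ± 0.09 (adjusted p = 0.0172) by its only probe set, a call lost without B6g7 Tconv replicate 2 (0.053) or NOD Treg replicate 3 (0.0518). It was also lost without all replicate 2 arrays (0.45) or all replicate 3 arrays (0.138). The class IIa enzymes, which work mostly through bound corepressors, did not pass: Hdac7 had 0.29 ± 0.13 (adjusted p = 0.322), Hdac5 had -0.17 ± 0.09 (adjusted p = 0.46), Hdac4 had -0.38 ± 0.20 (adjusted p = 0.462) and Hdac9 had 0.05 ± 0.09 (adjusted p = 0.914) by its brightest probe set; another one, dim in all groups but B6g7 Treg, is described with the other probe sets. Hdac11, the class IV enzyme, had 0.06 ± 0.10 (adjusted p = 0.899). The class I enzymes had 0.44 ± 0.12 for Hdac1 (adjusted p = 0.0544), -0.19 ± 0.12 for Hdac2 (adjusted p = 0.59), 0.04 ± 0.08 for Hdac3 (adjusted p = 0.911) and 0.17 ± 0.21 for Hdac8 (adjusted p = 0.852). None of the 7 sirtuins, the NAD-dependent deacetylases, was called by limma and none reached an unadjusted p under 0.05; Sirt1 had -0.31 ± 0.15 (adjusted p = 0.409), Sirt7 -0.15 ± 0.11 (adjusted p = 0.662), Sirt3 -0.08 ± 0.10 (adjusted p = 0.856) and Sirt6 0.06 ± 0.08 (adjusted p = 0.868).

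Of 8 lysine acetyltransferases, Kat14 alone was called, lower in Treg (3.03% of all genes were). It belongs to the ATAC acetyltransferase complex. Its levels were 8.92, 9.29 and 9.14 in NOD Treg, against 9.52, 9.35 and 9.61 in NOD Tconv, and 8.81, 9.20 and 9.10 in B6g7 Treg, against 9.41, 9.34 and 9.32 in B6g7 Tconv. The Treg arrays were all below the Tconv arrays. Kat14 changed by -0.35 ± 0.09 (adjusted p = 0.0337), while its other probe sets gave -0.13 and 0.02 and were not called. The call held without NOD Tconv replicate 2, B6g7 Treg replicate 2 or NOD Treg replicate 2 and was lost without any one of the other 9 arrays, at adjusted p between 0.0503 and 0.0951. It was also lost with renewed quantile normalization (0.117) and with the mean of its probe sets (0.175). Kat2b, also known as PCAF, had 0.32 ± 0.10 (adjusted p = 0.103, and 0.0219 with the replicate block), Kat2a 0.14 ± 0.10 (adjusted p = 0.657), Kat6a -0.14 ± 0.12 (adjusted p = 0.741), and Kat5, known to acetylate Foxp3, 0.03 ± 0.08 (adjusted p = 0.942).

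Within single strains fewer genes passed. In NOD, 4 of the 71 genes were called, against 4.38% of all genes, with 3 higher in Treg (2.86% of all genes) and 1 lower (1.52%): Kdm2b, Hdac10 and Hdac1 rose and Setd4 fell. Hdac1, the class I deacetylase of the Sin3, NuRD and CoREST complexes, had 0.70 ± 0.17 in NOD (adjusted p = 0.0461), and 0.18 ± 0.17 in B6g7 with an adjusted p of 0.803. The Hdac1 call was lost without B6g7 Tconv replicate 2 (0.0698), B6g7 Tconv replicate 3 (0.0513), NOD Tconv replicate 1 (0.204), NOD Tconv replicate 2 (0.158), B6g7 Treg replicate 1 (0.0511), NOD Treg replicate 2 (0.185) or NOD Treg replicate 3 (0.209). It was also lost from the NOD arrays alone (0.0697) and with an offset of 16 before log2 (0.0603). The NOD count was 1 without NOD Tconv replicate 1, NOD Treg replicate 2 or NOD Treg replicate 3, and 2 without NOD Tconv replicate 2 or B6g7 Tconv replicate 2; it was 8 with the actin covariate and 2 from the NOD arrays alone. For those runs the share of all genes is not given here. NOD Treg and NOD Tconv arrays of the same number deviated together, and with the replicate number as a block 8 genes were called, against 6.81% of all genes. The added calls were Dnmt3a at 0.42 (adjusted p = 0.0473), Hdac6 at 0.43 (0.0341), Setdb2 at -0.41 (0.041) and Tet1 at -0.50 (0.00532).

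In B6g7, 3 of the 71 genes were called, against 4.55% of all genes: Kdm2b was higher in Treg (2.84% of all genes were) and Setd4 and Tet1 were lower (1.7%). The count was 6 with the replicate block, 10 with array weights and 8 with the actin covariate, and it was 0 without all replicate 2 arrays. No share of all genes is given here for these runs. The largest changes that did not pass were Setd6, a methyltransferase known to modify the NF-kappaB subunit RelA, at -0.70 ± 0.19 (adjusted p = 0.0844), and Kat2b at 0.50 ± 0.14 (adjusted p = 0.0892). Setd6 stood at 9.24, 9.50 and 8.73 in B6g7 Treg, against 9.80, 10.07 and 9.70 in B6g7 Tconv. Those groups did not overlap, and Setd6 was called with the block (0.0207), weights (0.0437) and the covariate (0.0389). Kat2b had 11.40, 11.16 and 11.11 in B6g7 Treg, against 10.79, 10.88 and 10.48 in B6g7 Tconv, again without overlap, and was called with the block (0.0164), weights (0.0457) and the covariate (0.00592).

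The second question was which enzymes differ between the strains. Averaged over both populations, 5 of the 71 genes were called, against 5.8% of all genes, with 3 higher in NOD than in B6g7 (3.25% of all genes) and 2 lower (2.56%). Hdac1, Setd4 and Ezh2 were higher in NOD, and Dnmt3b and Kdm1a were lower. Of the 71 genes, 48 had a positive and 23 a negative difference, with a median of 0.05 against 0.01 over all genes. The count was 3 without B6g7 Tconv replicate 1, NOD Tconv replicate 2, B6g7 Treg replicate 3 or NOD Treg replicate 3, and 8 with array weights or with the actin covariate. No share of all genes is given here for these runs.

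Hdac1 was 2.07-fold higher in NOD. Its levels were 11.74, 12.16 and 12.28 in NOD Treg, against 10.68, 11.01 and 10.56 in B6g7 Treg. In Tconv they were 11.17, 11.31 and 11.59 in NOD, against 10.82, 10.48 and 10.41 in B6g7. Every NOD array was above every B6g7 array. The averaged difference was 1.05 ± 0.12 (adjusted p = 0.000109), made of 1.31 ± 0.17 in Treg (adjusted p = 0.000568) and 0.79 ± 0.17 in Tconv (adjusted p = 0.024), all from its only probe set. Whether the strains differ in sequence under that probe set was not tested. The Tconv call was lost without B6g7 Tconv replicate 2 (0.108), B6g7 Tconv replicate 3 (0.104), NOD Tconv replicate 2 (0.0728) or NOD Tconv replicate 3 (0.119). It was also lost with renewed quantile normalization (0.0516). The other class I enzymes had differences between 0.01 and 0.05.

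Dnmt3b, the second de novo DNA methyltransferase, was 2.21-fold lower in NOD. Its levels were 6.97, 7.38 and 7.30 in NOD Treg, against 7.87, 8.47 and 7.87 in B6g7 Treg. In Tconv they were 6.58, 6.999 and 7.08 in NOD, against 8.12, 8.50 and 8.33 in B6g7. No NOD array reached the lowest B6g7 array. The averaged difference was -1.14 ± 0.13 (adjusted p = 0.000103), with -1.43 ± 0.19 in Tconv (adjusted p = 0.000557) and -0.85 ± 0.19 in Treg (adjusted p = 0.0228). The Treg call was lost without B6g7 Treg replicate 2 (0.0838), NOD Treg replicate 1 (0.0968) or NOD Treg replicate 3 (0.0641). It was also lost from the Treg arrays alone (0.0749). Its other probe set was called lower as well, at -0.54 ± 0.12 averaged (adjusted p = 0.0182), and had -0.74 ± 0.17 in Treg (adjusted p = 0.0356) and -0.35 ± 0.17 in Tconv (adjusted p = 0.536). Dnmt1, Dnmt3a and Dnmt3l differed by -0.05, -0.05 and 0.08 and were not called.

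Setd4 was 1.70-fold higher in NOD, by 0.77 ± 0.09 (adjusted p = 0.000129), with 0.90 ± 0.13 in Treg (adjusted p = 0.0011) and 0.63 ± 0.13 in Tconv (adjusted p = 0.0152). Both other probe sets were called in the same direction, each at 0.51. From the levels given above, NOD and B6g7 arrays were separate in each population. The Tconv call was lost without B6g7 Tconv replicate 1 (0.0573), B6g7 Tconv replicate 2 (0.0695) or NOD Tconv replicate 3 (0.0744). The Treg call held without any single array and was lost without all replicate 2 arrays (0.108). Setd4 was called in both averaged comparisons, lower in Treg and higher in NOD.

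Ezh2 and Kdm1a had smaller differences. Ezh2, which writes the repressive methyl mark on histone H3 lysine 27, had levels of 9.40, 8.98 and 9.07 in NOD Treg, against 8.95, 8.90 and 8.76 in B6g7 Treg. In Tconv it had 9.15, 9.06 and 9.10 in NOD, against 8.62, 8.87 and 8.31 in B6g7. The NOD arrays were all above the B6g7 arrays. Ezh2 was higher by 0.39 ± 0.10 (adjusted p = 0.0376), a call that held without B6g7 Tconv replicate 2, B6g7 Treg replicate 1 or NOD Treg replicate 2 and was lost without any one of the other 9 arrays, at adjusted p between 0.0631 and 0.0903. Kdm1a, the histone H3 lysine 4 demethylase LSD1, had 9.26, 9.09 and 9.16 in NOD Treg, against 9.67, 9.40 and 9.82 in B6g7 Treg. In Tconv it had 9.55, 9.16 and 9.26 in NOD, against 9.81, 9.62 and 9.45 in B6g7. The strains were separate in Treg and overlapped in Tconv. Kdm1a was lower in NOD, at -0.38 ± 0.10 (adjusted p = 0.0356), and the other probe set gave -0.28 (adjusted p = 0.265). The call held without B6g7 Tconv replicate 3, NOD Tconv replicate 1, B6g7 Treg replicate 2 or NOD Treg replicate 1 and was lost without any one of the other 8 arrays, at adjusted p between 0.0676 and 0.102. It was also lost with the mean of its probe sets (0.0735). Not called, but next in p, were Setd3 at 0.39 ± 0.10 (adjusted p = 0.0522) and the jumonji protein gene Kdm8 at -0.29 ± 0.09 (adjusted p = 0.0784). Setd3 was called with the replicate block (0.0328), array weights (0.0042), the dim filter (0.0473), renewed quantile normalization (0.0341) and the covariate (0.0148), and Kdm8 with the block (0.0448) and the covariate (0.0198).

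**Figure D3:**
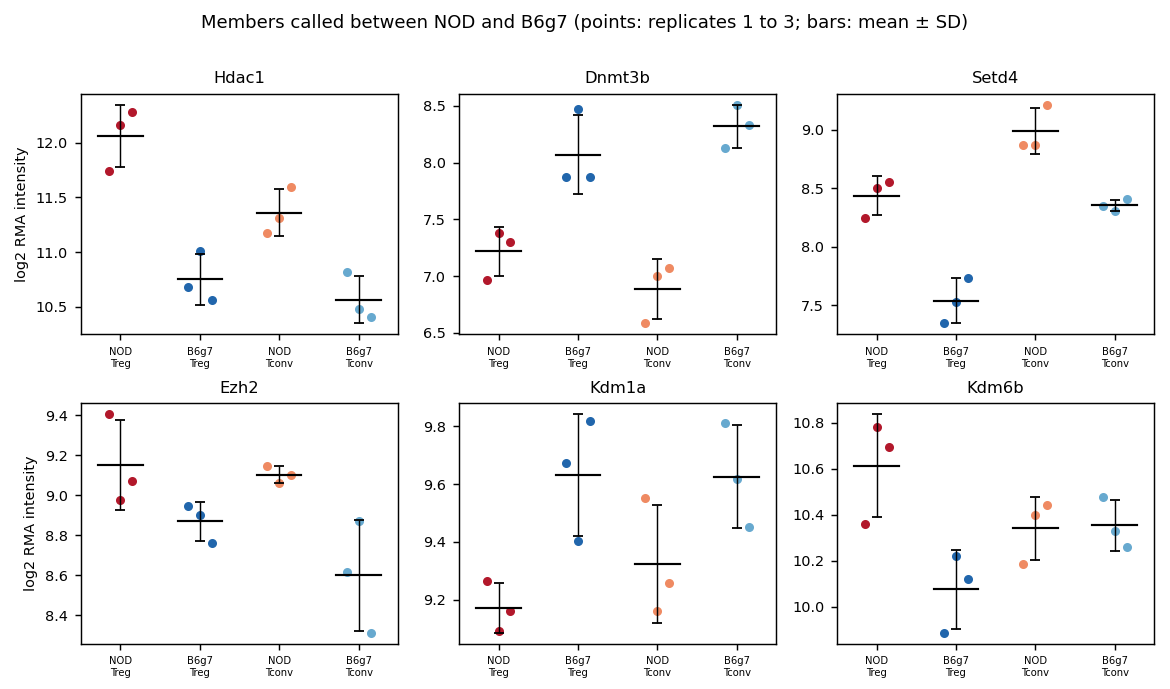
Log2 RMA intensity of the 6 genes called between NOD and B6g7, by group, with 1 point per array and the mean ± SD of 3 arrays. Hdac1 lies between 11.17 and 12.28 in NOD and between 10.41 and 11.01 in B6g7, and Dnmt3b between 6.58 and 7.38 in NOD and between 7.87 and 8.50 in B6g7.

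Within Treg, 4 of the 71 genes were called between strains, against 3.33% of all genes: Hdac1, Setd4 and Kdm6b were higher in NOD (1.84% of all genes were) and Dnmt3b was lower (1.49%). Kdm6b, which removes methyl groups from histone H3 lysine 27, had 10.36, 10.78 and 10.70 in NOD Treg, against 9.89, 10.22 and 10.12 in B6g7 Treg. In Tconv it had 10.18, 10.40 and 10.44 in NOD, against 10.47, 10.33 and 10.26 in B6g7. The strains were separate in Treg and overlapped in Tconv. The difference in Treg was 0.54 ± 0.13 (adjusted p = 0.0422) by a probe set whose name marks possible cross-hybridisation, while the other probe sets gave 0.31 and -0.06 and were not called. Its call held without B6g7 Tconv replicate 3, NOD Tconv replicate 1, B6g7 Treg replicate 2 or NOD Treg replicate 1 and was lost without any one of the other 8 arrays, at adjusted p between 0.0521 and 0.188. It was also lost from the Treg arrays alone (0.155), with renewed quantile normalization (0.0815) and with the mean of its probe sets (0.318). The Treg count was 2 without NOD Treg replicate 3 and 2 from the Treg arrays alone. NOD and B6g7 Treg arrays of the same number deviated together; with the replicate number as a block Kdm1a was also called, at -0.46 (adjusted p = 0.0296), making 5 calls against 4.92% of all genes. Within Tconv, 3 of the 71 genes were called, against 3.05% of all genes: Hdac1 and Setd4 were higher in NOD (1.6% of all genes were) and Dnmt3b was lower (1.45%). That count was 1 without NOD Tconv replicate 3.

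The question named in the series is whether the ratio of Treg to Tconv levels differs between the strains. For the 71 genes limma called 0, against 0.11% of all genes (0.0605% higher and 0.0495% lower); 3 of them, or 4.23%, had an unadjusted p under 0.05, against 4.97% of all genes. Averaging all probe sets of a gene gave 1 call, Hdac9, whose mean includes a probe set that is dim in 3 of the 4 groups. The difference of the changes, NOD minus B6g7, was 0.62 ± 0.27 for Setd6, 0.58 ± 0.26 for Dnmt3b and 0.55 ± 0.18 for Kdm6b, each with an adjusted p of 0.962. For Hdac1, called in NOD and not in B6g7, the difference was 0.52 ± 0.24 (adjusted p = 0.962). For Setd4 it was 0.26 ± 0.18, for Kdm2b 0.15 ± 0.15 and for Tet1 0.11 ± 0.18, at adjusted p between 0.962 and 0.967. The SE of this difference had a median of 0.20 over the 71 genes, and the 3 arrays a group limit the precision.

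**Figure D4:**
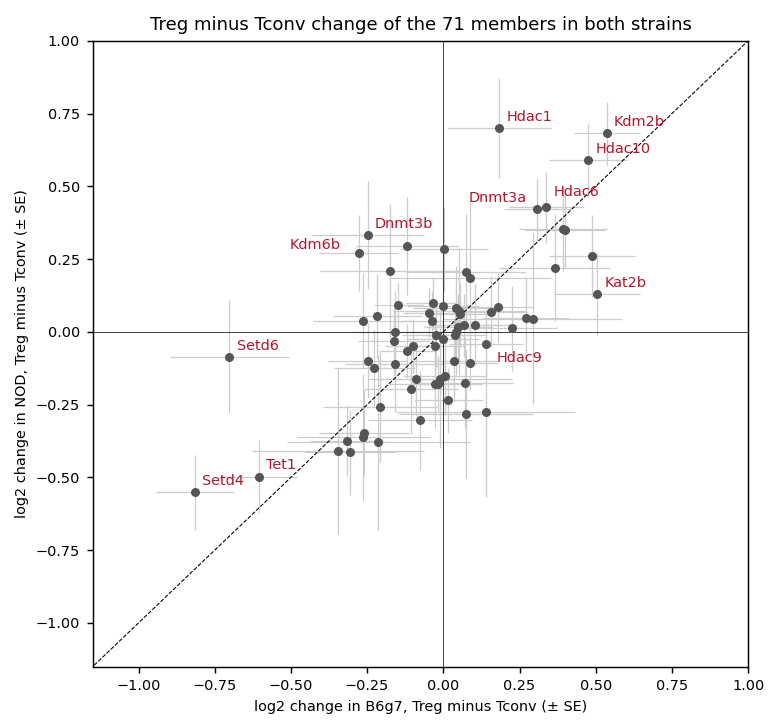
Log2 change, Treg minus Tconv, of the 71 genes in NOD (vertical axis) and in B6g7 (horizontal axis), each point with the SE of both changes; the dashed line marks equal change. Kdm2b, Setd4 and Tet1 lie near the line, while Hdac1 at 0.70 in NOD and 0.18 in B6g7, and Setd6 at -0.09 in NOD and -0.70 in B6g7, lie off it without passing the test of the difference.

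Probe sets other than the brightest gave calls that the representative did not, and they are described without counting them above. Hdac9, a class IIa deacetylase, is represented by a probe set at 6.08, 6.53 and 6.19 in NOD Treg, against 6.38, 6.40 and 6.15 in NOD Tconv, and at 6.25, 6.22 and 6.43 in B6g7 Treg, against 6.23, 6.13 and 6.11 in B6g7 Tconv. That probe set shows no separation of groups. Its other probe set, chosen for display after its values were seen, had 5.39, 5.16 and 5.19 in NOD Treg, against 4.21, 4.10 and 4.37 in NOD Tconv. In B6g7 it had 6.59, 6.61 and 6.72 in Treg, against 4.41, 4.30 and 3.98 in Tconv. All Treg arrays were above all Tconv arrays, and B6g7 Treg was above NOD Treg, though every group except B6g7 Treg had a mean under the dim level. The levels are therefore given here without the size of any change, and the difference flagged near the end is no measured size either.

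A second probe set of Kat2b had 9.66, 9.74 and 10.05 in NOD Treg, against 11.08, 10.55 and 10.92 in B6g7 Treg. In Tconv it had 9.72, 9.45 and 9.79 in NOD, against 10.41, 10.38 and 10.26 in B6g7. Every NOD array was below every B6g7 array, at -0.86 ± 0.10 averaged (adjusted p = 0.000151), whereas the brightest probe set of the gene gave 0.04 (adjusted p = 0.963). Kdm5b, a histone H3 lysine 4 demethylase, had -0.52 ± 0.09 by a second probe set (adjusted p = 0.00196) and 0.01 by the brightest (adjusted p = 0.994). Kmt2c, a histone H3 lysine 4 methyltransferase, had -0.39 ± 0.09 by a second probe set (adjusted p = 0.0166) and 0.02 by the brightest (adjusted p = 0.991). Which transcripts these probe sets detect, and whether the strains differ in sequence under them, was not tested. The same holds for all strain differences given above. Of the 71 genes, 25, among them Hdac1 and Ezh2, have 1 probe set, so probe sets could not be compared for them.

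**Figure D5:**
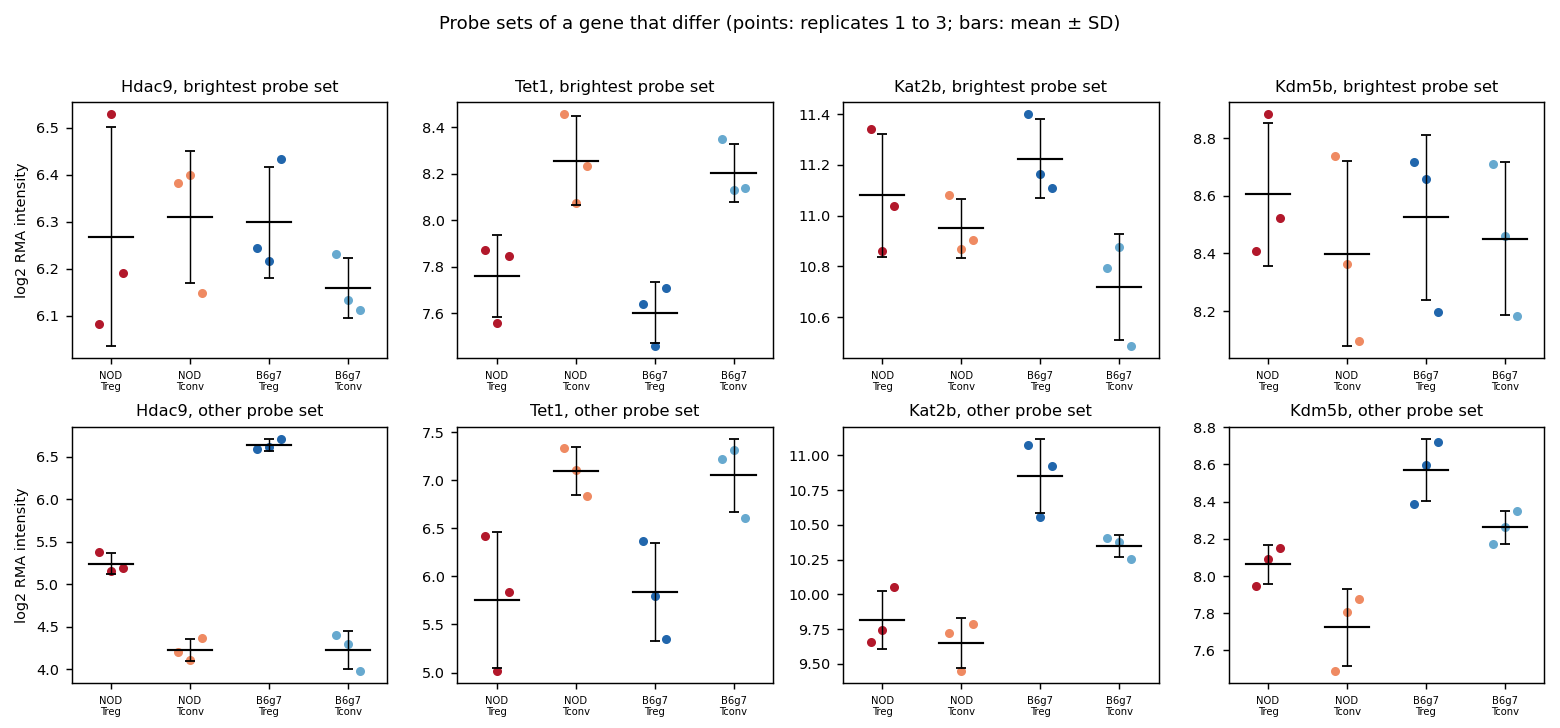
Log2 RMA intensity of the brightest probe set (upper row) and another probe set (lower row) of Hdac9, Tet1, Kat2b and Kdm5b, by group, with 1 point per array and the mean ± SD of 3 arrays; the vertical scales differ between panels. For Hdac9 the other probe set lies between 6.59 and 6.72 in B6g7 Treg and between 3.98 and 5.39 in the other groups, while the brightest overlaps between all groups.

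The enzymes act in complexes and with readers, listed in 14 groups with 170 different genes, of which 158 were measured. Between Treg and Tconv 9 of these were higher and 2 lower, 6.96% of them against the 7.5% of all genes. Smyd2, a lysine methyltransferase, had 8.26, 8.31 and 8.30 in NOD Treg, against 7.25, 7.42 and 7.59 in NOD Tconv, and 7.71, 7.83 and 7.94 in B6g7 Treg, against 7.03, 7.14 and 7.23 in B6g7 Tconv. It rose by 0.79 ± 0.07 (adjusted p = 1.5e-05) and was also higher in NOD, by 0.38 ± 0.07 (adjusted p = 0.00663). Wdr82, which ties the SETD1 methyltransferases to RNA polymerase, rose by 0.66 ± 0.08 in Treg (adjusted p = 0.000149) and was lower in NOD, at -0.66 ± 0.08 (adjusted p = 0.000136). Phc3, a subunit of Polycomb repressive complex 1, rose by 0.51 ± 0.08 (adjusted p = 0.0017). The coactivator Ncoa3 rose by 0.68 ± 0.11 (adjusted p = 0.00138), and Atat1, the tubulin acetyltransferase whose mark Hdac6 removes, by 0.40 ± 0.07 (adjusted p = 0.00212).

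In the list on DNA demethylation and base excision, 2 of 10 measured genes rose in Treg (4.46% of all genes did) and 1 fell (3.03%). It is 1 of the 14 lists, over which 6.96% were called against 7.5% of all genes. Gadd45g rose by 0.99 ± 0.15 (adjusted p = 0.000861). Idh1 and Idh2 make alpha-ketoglutarate, the cosubstrate of Tet and jumonji enzymes. Idh2, of mitochondria, fell, at a change of -0.78 ± 0.07 (adjusted p = 1.31e-05), with levels of 7.60, 7.50 and 7.56 in NOD Treg, against 8.47, 8.24 and 8.36 in NOD Tconv, and 7.71, 7.51 and 7.52 in B6g7 Treg, against 8.44, 8.40 and 8.18 in B6g7 Tconv. Idh1, of the cytosol, rose by 0.45 ± 0.11 (adjusted p = 0.0352). The remaining calls were the NuRD helicase Chd3 at 0.31 ± 0.08 (adjusted p = 0.0346), Jmjd1c at 0.36 ± 0.08 (adjusted p = 0.0139) and the SWI/SNF subunit Arid2 at -0.33 ± 0.06 (adjusted p = 0.00658). Of 17 deacetylase corepressors limma called 0, with 1 at an unadjusted p under 0.05, and of 12 DNA methylation partners and readers it called 0, with 2 at an unadjusted p under 0.05.

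Between strains, 3 of the 158 partner genes were higher and 5 lower in NOD, 5.06% of them against the 5.8% of all genes. Besides Wdr82 and Smyd2, the calls were the Polycomb repressive complex 2 cofactor Phf1 at 0.50 ± 0.11 (adjusted p = 0.0206), the arginine methyltransferase Prmt6 at 0.36 ± 0.08 (adjusted p = 0.0125), and, lower in NOD, the chromodomain proteins Cbx6 at -0.42 ± 0.07 (adjusted p = 0.00314) and Cbx7 at -0.48 ± 0.09 (adjusted p = 0.00619), the SETDB1 partner Atf7ip at -0.45 ± 0.08 (adjusted p = 0.00584) and the bromodomain protein Brd9 at -0.41 ± 0.08 (adjusted p = 0.00583). For the strain difference in the change limma called 0 of the 158. Of 19 measured cell cycle genes, 0 were called by limma between Treg and Tconv, with 1 at an unadjusted p under 0.05. Of the same 19, 2 were higher in NOD (3.25% of all genes were): Rrm1 at 0.53 ± 0.09 (adjusted p = 0.00282) and Cdc20 at 0.44 ± 0.12 (adjusted p = 0.0444).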

How the data were processed

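RNA of 12 samples was measured on 1-colour Affymetrix arrays, 3 per group. The authors deposited 1 linear intensity per probe set and array, made by RMA per the labels and the submitters' processing notes; the software version is not given in the sources used here. RMA quantile-normalizes the arrays, so a shift shared by most genes cannot be seen. Replicates are pools of separate mice, per the series text. The log2 of the deposited intensity was fitted with limma 3.58.1 in R 4.3.3 (lmFit, eBayes, a mean per group over all 12 arrays), after 64 control probe sets of 45101 were removed, with Benjamini-Hochberg adjustment over the remaining 45037. By the platform annotation 34945 of these name 1 gene, 932 several and 9160 none; a gene took its brightest single-gene probe set. The fit was run on simulated data with planted changes. The simulated noise was drawn independently for each array, so it does not cover deviations shared by replicate number.

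The genes and lists were chosen with earlier results of these data known. Named were all called genes, the 4 of smallest p per enzyme group, a set list of well-known enzymes, and called partner genes; dimmer probe sets were described after their values were seen. Replicate numbers come from the sample labels. Deviations from group means correlated between same-numbered arrays at 0.56, 0.31 and 0.40 for NOD Treg and NOD Tconv and at 0.67, 0.34 and 0.30 for NOD Treg and B6g7 Treg, so these were taken as paired. The main fit had no replicate term, so its counts, SE and adjusted p do not use this pairing. Results with the block are given beside them. Alternatives were a replicate block, array weights, a dim filter, renewed quantile normalization, an offset of 16, the mean of probe sets, the actin difference as covariate, only the arrays compared, and leaving out arrays.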

Additional observations from a re-analysis of the deposited data

Results flagged for a closer look

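For Hdac9, a class IIa histone deacetylase, the dimmer of its probe sets gave a difference of -1.40 between the NOD and B6g7 changes of Treg against Tconv (limma, adjusted p = 0.00431). This probe set was picked after its values were seen. The mean of every group except B6g7 Treg lay under the dim level of 5.28, though NOD Treg ran up to 5.39. The number is therefore no measured size of a strain difference, and its adjusted p is not taken as support for one. The levels lay between 5.16 and 5.39 in NOD Treg, against 4.10 and 4.37 in NOD Tconv, and between 6.59 and 6.72 in B6g7 Treg, against 3.98 and 4.41 in B6g7 Tconv. The adjusted p was at most 0.0252 when any single array was left out, 0.459 without all replicate 2 arrays and 0.214 without all replicate 3 arrays. These values carry the same limit. The brightest probe set gave -0.18 ± 0.17 (adjusted p = 0.962).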

How the results depend on the processing

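Of 34 single calls, including 6 of the second Hdac9 probe set, none reversed under any alternative run, and 19 held when any single array was left out. All 6 calls of that probe set, which was picked after its values were seen, are among the 19. They also enter the combinations counted next. Over 759 combinations of a call and an alternative, 608 stayed past the threshold and 151 did not. Neither total is therefore a count for the brightest probe sets alone. Between Treg and Tconv averaged over strains, the count of 9 became 14 with the replicate block, 15 with array weights and 14 with the actin difference as covariate, and lay between 3 and 10 when arrays were left out. In NOD the 4 calls became 8 with the block, 8 with the covariate and 2 from the compared arrays alone, and 0 to 5 with arrays left out. In B6g7 the 3 calls became 6 with the block, 10 with weights and 8 with the covariate, and 0 to 3 with arrays left out. Between strains, the averaged 5 became 8 with weights and 8 with the covariate, and 3 to 6 with arrays left out. In Treg the 4 became 2 from the compared arrays alone and 1 to 4 with arrays left out, and in Tconv the 3 became 1 to 3. For the strain difference in the change, the mean of all probe sets gave 1 call, Hdac9, and leaving out arrays gave 0. The cause of these shifts was not tested. The share of all genes called moves with the setting as well. With the block it was 6.81% in NOD, against 4.38% in the main fit. Between strains in Treg it was 4.92% with the block, against 3.33%. For the other runs that share is not given here, so their counts say nothing particular about the enzymes.

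B6g7 Treg and Tconv arrays of numbers 1, 2 and 3 correlated at 0.52, -0.080 and 0.50. NOD and B6g7 Tconv arrays of these numbers correlated at 0.44, -0.041 and 0.20. Because of number 2 the numbers were not taken as pairing in these comparisons, although numbers 1 and 3 deviated together. In these, the replicate block added Kdm3b, Setd6 and Kat2b to the B6g7 calls and Ezh2 to the Tconv calls, which made 4. The share of all genes called with the block in these comparisons is not given here.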

Other observations

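Some enzymes varied among arrays of a group more than others. The pooled SD within groups was 0.44 for Kdm5a, 0.43 for Hdac8, 0.43 for Kdm7a, 0.42 for Hdac4 and 0.39 for Sirt2, against a median of 0.18 over the 71 genes and 0.15 over all genes. Part of this spread was shared by replicate number. Arrays of number 1 were above their group mates in all 4 groups for 18 of the 71 genes and below for 10, against 15.2% and 20.0% of all genes. In arrays of number 1, Kdm7a averaged 0.64 and Sirt2 -0.46 relative to the mean of their group mates, the array itself left out. In arrays of number 3, Sirt2 averaged 0.54 and Hdac8 -0.44 relative to that mean.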
